A study of Mus musculus with 3 samples.

Results

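Some miRNA hairpins are made without the nuclear enzyme Drosha. Members of 2 such classes, Mir320 and Mir484, chosen as capped hairpins, and the mirtrons Mir877, Mir1981, Mir3102 and Mir702, were followed in small RNA of HL-1, a beating cell line from mouse heart muscle. An insert, which is the part of a read before the 3' adapter, counted for a hairpin if it had 18 to 25 nt and matched the hairpin exactly or with 1 to 2 untemplated bases at its 3' end. These are 6 of the 675 hairpins searched, they were chosen by name with earlier results of these data known, and each had reads in both libraries. The cells had been transfected with siRNA by a lipid reagent, and total RNA was taken 48 h later. The samples used have the titles siSrf1 and siSrf2, 1 library for each, named for siRNAs that target Srf, the gene of the serum response factor, which switches on many muscle genes. A library titled for the unspecific siRNA was not analysed here. Titles and siRNA entries disagree: Srf si2 is entered for the sample titled siSrf1, and siNon for the one titled siSrf2, so each library is called by its title as a label only. With 1 library a group there was no replicate check and no test across samples, and every interval covers counting error only.

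Most miRNAs are cut out of a long transcript by Drosha and then trimmed by Dicer to a duplex with a 5' arm (5p) and a 3' arm (3p), of which mainly 1 strand is kept. A mirtron needs no Drosha cut, because splicing releases a short intron that folds into the hairpin after debranching, so that the ends of the hairpin are the splice sites. In the capped class, of which Mir320 is the best known, transcription itself starts at the 5' end of the hairpin, the cap stays on the 5p strand, and the 3p strand enters the Argonaute protein. Untemplated bases are added to the 3' ends of such RNAs by terminal nucleotidyl transferases.

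The libraries held 14911499 and 14518157 reads (siSrf1 first, here and in later pairs), of which 7748874 and 7013026 gave inserts of 18 to 25 nt. Of these inserts 66.6% and 63.7% were assigned to a miRNA arm. Muscle miRNAs marked the cells: the hairpin Mir1a-1 held 64.0% and 53.0% of miRNA reads and Mir499 1.42% and 1.42%, while Mir133a-1, Mir208a and Mir208b were also read. The epithelial hairpins Mir200c and Mir141 had at most 4 reads in a library, the liver hairpin Mir122 had 37 and 60, and the blood hairpins Mir451a, Mir223 and Mir142 between 82 and 197. Mir126a, known from endothelium, had 3115 and 2366 reads, more than the muscle hairpins Mir208a (259 and 366) and Mir208b (824 and 860). Levels below are RPM, that is reads per 1000000 miRNA reads, and ratios are log2 of siSrf1 minus siSrf2, so that a value below 0 means more reads in the library labelled siSrf2.

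The hairpins of 4 members and the mature forms of 5 are held by RefSeq (GRCm38.p6), and Mir320 is named only. The following hairpins are shown with the most frequent insert of these libraries in capitals, because the place of that insert is what the members differ in: at the very start of the intron in Mir877 and Mir1981, after 9 bases of exon in Mir702, and 4 bases inside the hairpin in Mir484.
Mir484: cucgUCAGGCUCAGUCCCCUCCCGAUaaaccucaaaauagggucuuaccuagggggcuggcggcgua
Mir877: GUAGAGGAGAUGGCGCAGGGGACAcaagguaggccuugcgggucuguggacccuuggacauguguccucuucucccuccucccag
Mir1981: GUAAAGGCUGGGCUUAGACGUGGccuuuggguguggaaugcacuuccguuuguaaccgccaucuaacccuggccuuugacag
Mir702: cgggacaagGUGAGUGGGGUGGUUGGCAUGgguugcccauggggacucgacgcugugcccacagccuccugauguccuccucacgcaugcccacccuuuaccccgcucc

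Mir3102 holds 4 mature forms in RefSeq, an outer duplex (5p and 3p) and an inner duplex (5p.2 and 3p.2). They are shown with the seed, bases 2 to 8 that pair with targets, in capitals, beside miR-702-5p, which shares a seed with the outer 5p.
miR-3102-5p: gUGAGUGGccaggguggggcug
miR-3102-5p.2-5p: gGUGGUGCaggcaggagagcc
miR-3102-3p.2-3p: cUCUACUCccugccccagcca
miR-3102-3p: gAGCACCCcauuggcuacccaca
miR-702-5p: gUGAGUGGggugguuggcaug
The seed UGAGUGG is held by 2 of the 1738 mature forms in the table, these 2. Each of the other members' seeds in the table is held by 1 mature form, so apart from this pair the 5 members in the table share no seed.

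Taken as a whole the members were a small part of the miRNA pool, with 17731 and 26671 reads, or 0.343% (exact binomial 95% interval 0.338 to 0.349) and 0.597% (0.590 to 0.604) of miRNA reads. Nearly all of it was Mir320. The other 5 hairpins together had 513 and 1783 reads, which is 4.01-fold more in RPM in the library labelled siSrf2 (3.64 to 4.44), while Mir320 alone differed 1.67-fold (1.64 to 1.70).

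**Figure D1:**
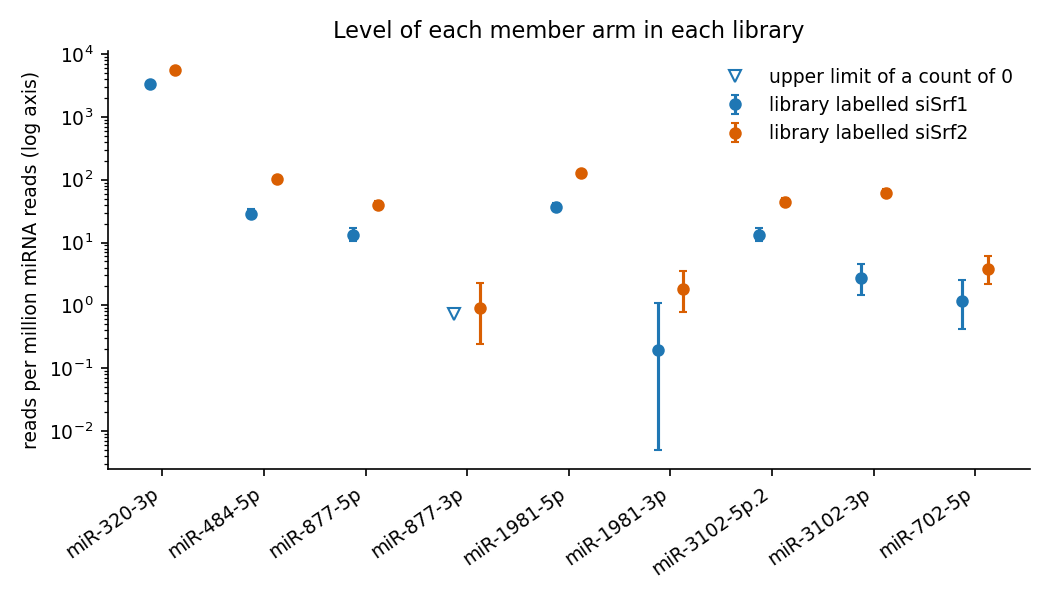
Level of each member arm with a read, in RPM on a log axis, in the library labelled siSrf1 (blue) and the library labelled siSrf2 (orange). Points are counts scaled to the miRNA total, bars are exact Poisson 95% intervals, and the open triangle is the upper limit of a count of 0; miR-320-3p stands at 3329 and 5563, the other arms at 129 or below, and each arm is higher in the library labelled siSrf2.

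The capped hairpin Mir320 lies at chr14:70843317-70843398 on the plus strand (NCBIM37). In GENCODE vM1 it lies in no intron of a coding gene in the sense direction. It is separated by 38 nt from Polr3d, a subunit gene of RNA polymerase III on the opposite strand. Its 3p arm, miR-320-3p, had 17182 and 24857 reads, 3329 and 5563 RPM, and ranked 20 of 547 arms by reads. The log2 ratio was -0.74 (interval -0.77 to -0.71), short of the 2-fold size used here to call a difference. Mir320 read almost wholly from 1 side: 17217 of 17218 and 24887 of 24888 reads lay on the 3p side. The 1 read placed on the 5p side in each library began at hairpin position 32 and carried an untemplated end, and no counted read came from the hairpin start. Whether a capped 5' end could enter these libraries was not tested.

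The 5' end of miR-320-3p was less uniform than in most miRNA arms. The main 5' end held 90.5% of reads (90.0 to 90.9) and 87.8% (87.4 to 88.2), while the median over 180 arms with at least 50 reads in each library was 98.5% in both. Reads starting 1 nt further in were 6.96% and 8.08%, and those starting 2 nt further in 1.75% and 3.23%. Each such shift moves the seed by as many bases, and both shifted forms were the more frequent in the library labelled siSrf2.

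Mir484 lies at chr16:14159719-14159785 on the plus strand, in no intron of a coding gene in the sense direction in that annotation. From 4921513D23Rik (Marf1 in RefSeq) on the opposite strand it is separated by 351 nt. Its product miR-484-5p had 149 and 465 reads, 28.9 and 104 RPM, which is 3.60-fold more in the library labelled siSrf2 (2.99 to 4.37; log2 ratio -1.85, interval -2.13 to -1.58). All reads of this hairpin came from the 5p side. This arm use goes against that of the capped class as described above, whose 3p strand is the one kept, so the class name stands here only as the name under which Mir484 was chosen. A count of 0 on the 3p side allows a share of up to 2.01% in the library labelled siSrf1 and 0.645% in the library labelled siSrf2. Mir320 and Mir484 thus gave opposite arms. The 5' end of miR-484-5p was uniform, with 98.0% and 99.1% of reads at the main position.

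The 4 remaining hairpins lie in introns of coding genes in the sense direction. Mir877 spans chr17:36097675-36097759 on the minus strand, an intron of Abcf1, which encodes a translation factor of the ABC family. Mir1981 spans chr1:186646286-186646367 on the minus strand, an intron of Mosc2 (Mtarc2 in RefSeq), which encodes a mitochondrial reductase. Mir3102 spans chr7:108030820-108030923 on the minus strand, an intron of Arhgef17. In these 3 the annotated hairpin and the intron are the same interval, of 85, 82 and 104 nt, with 0 nt between their ends on either side. Mir702, at chr5:137467303-137467411 on the plus strand, begins 9 nt before an intron of Plod3, a collagen lysyl hydroxylase, and stops 2 nt before its end; this intron spans chr5:137467312-137467413 and has 102 nt.

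Read ends were compared with the splice sites base by base. On the 5p side, reads of Mir1981 began at the first intron base in 193 of 193 and 577 of 577 cases. For Mir877 this held for 63 of 72 reads (87.5%, interval 77.6 to 94.1) and 172 of 186 (92.5%, 87.7 to 95.8), and 9 and 12 reads began at the second base. Mir702 had 6 and 17 reads on this side, 5 and 16 of them at the first base. Mir3102 was the exception, with 1 of 70 and 1 of 202 reads at the first base, since its 5p reads came from the inner duplex. On the 3p side, the last templated base was the last intron base in 197 of 324 reads of Mir3102 in the library labelled siSrf2 and in 10 of 22 in the library labelled siSrf1. In the library labelled siSrf2 this held for 4 of 4 reads of Mir877, 6 of 8 of Mir1981 and 13 of 14 of Mir702. In the library labelled siSrf1 it held for 0 of 1 read of Mir1981 and 1 of 1 of Mir702, and Mir877 had 0 reads there. These Mir702 reads run past its annotated hairpin. No read of any of the 4 hairpins ran past the last intron base into the exon. The 3p reads of Mir3102 compared here include 5 and 21 of its inner 3p arm, which ends inside the intron.

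**Figure D2:**
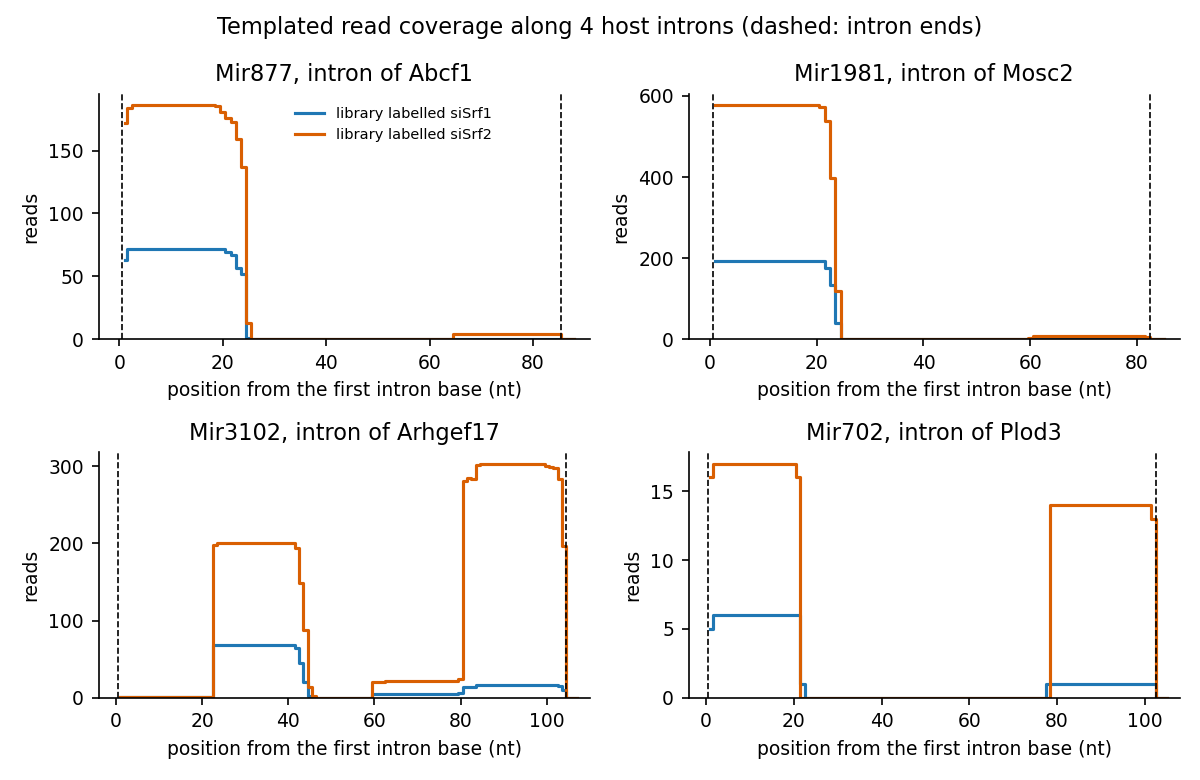
Number of reads covering each position of the 4 host introns, counted in nt from the first intron base, in the library labelled siSrf1 (blue) and the library labelled siSrf2 (orange); dashed lines are the intron ends. Mir877, Mir1981 and Mir702 are covered from the first base, Mir3102 mainly from base 23 and again up to the last base at 104. Mir702 is also covered up to its last base at 102, mostly in the library labelled siSrf2, by reads that the counts leave out.

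Of the mirtron arms, miR-1981-5p was read most, with 193 and 577 reads (37.4 and 129 RPM; log2 ratio -1.79, interval -2.03 to -1.55). Its other arm, miR-1981-3p, had 1 and 8 reads, so that 99.5% and 98.6% of Mir1981 reads were 5p. miR-877-5p had 69 and 176 reads (13.4 and 39.4 RPM; log2 ratio -1.55, interval -1.98 to -1.15), and miR-877-3p had 0 and 4. The 5p share of Mir877 was 100% (95.0 to 100) and 97.9% (94.7 to 99.4). miR-702-5p had 6 and 17 reads, too few for the minimum of 50 set for a ratio. Both well-read 5p arms were longer than usual: the most frequent insert had 24 nt for miR-877-5p and 23 nt for miR-1981-5p, and mean lengths were 23.8 and 23.95 nt for the former and 23.0 nt in both libraries for the latter, while the median of mean lengths over 180 arms was 21.98 and 22.01 nt. For miR-877-5p the most frequent insert is also 4 nt longer than the 20 nt of the RefSeq form.

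Mir3102, which alone among these mirtrons holds an inner and an outer duplex in RefSeq, gave reads from both. The inner 5p arm (5p.2, hairpin positions 23 to 43) had 69 and 201 reads, 13.4 and 44.98 RPM, a log2 ratio of -1.74 (-2.17 to -1.35), which lies among the values of miR-877-5p, miR-1981-5p and miR-484-5p. The outer 3p arm (positions 81 to 104) had 14 and 279 reads, 2.71 and 62.4 RPM. This is 22.3-fold more in the library labelled siSrf2 (13.5 to 42.7; log2 ratio -4.48, interval -5.41 to -3.75), the furthest of all 250 arms with at least 50 reads. The outer 3p arm met that minimum, a sum over both libraries, only through the library where it is high. The intervals of the 2 arms, although both come from 1 intron, do not overlap. Of the remaining places, the inner 3p arm (positions 60 to 80) had 5 and 21 reads, a shorter form of the outer 3p arm (84 to 104) had 3 and 20, and the outer 5p arm had 1 and 1. So the better-read strand was the 5p in the inner duplex and the 3p in the outer one in each library. In all, the 5p side held 76.1% of Mir3102 reads (66.1 to 84.4) and 38.4% (34.2 to 42.7).

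**Figure D3:**
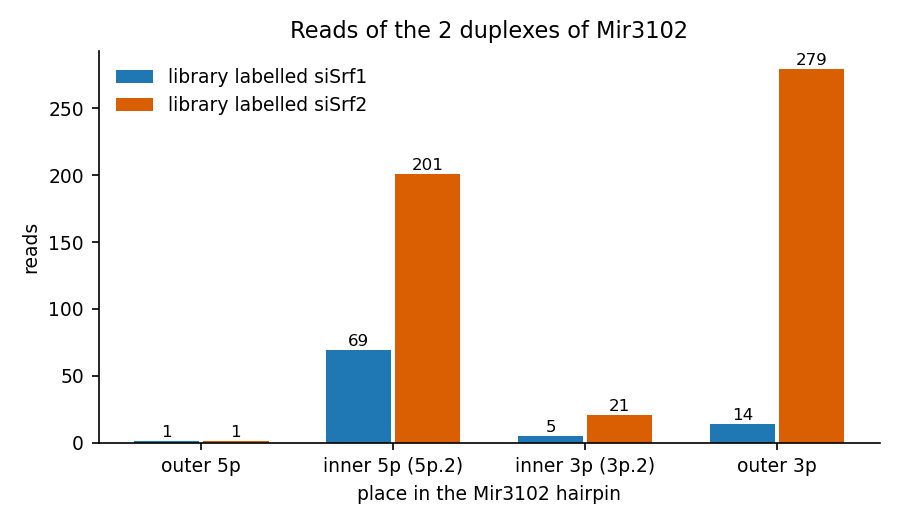
Reads of the 4 arms of the outer and inner duplex of Mir3102 in the library labelled siSrf1 (blue) and the library labelled siSrf2 (orange), with the count above each bar. The inner 5p arm goes from 69 to 201 reads and the outer 3p arm from 14 to 279.

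Among the members, 5 of 6 measured arms (those with at least 50 reads over both libraries) were past the size rule, which asks for a 2-fold difference with the whole interval on 1 side of 0, and all 5 were higher in the library labelled siSrf2. Of these, miR-3102-3p had 14 and 279 reads, so it reached the minimum only through the library where it is high. Of all 250 measured arms 26.0% were past the rule in this direction and 0.0% in the other. The members were chosen with earlier results of these data known, so this contrast only describes these 2 libraries. The median log2 ratio was -1.76 over the member arms and -0.43 over all measured arms. Scaling by TMM factors, which moves all ratios up by 0.50, left 5 of 6 member arms past the rule, against 14.4% of all arms in this direction and 1.2% in the other, with a member median of -1.26 and 0.07 over all arms. miR-320-3p, the most abundant member, lay at -0.24 on that scale.

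GC content was high in the member arms past the rule. The 5 arms past the rule had a GC content from 56.5% (miR-1981-5p) to 71.4% (the inner 5p arm of Mir3102), against a median of 47.8% over all measured arms, and miR-320-3p had 54.5%. Among these 5 arms the one highest in GC lay at -1.74, the lowest at -1.79, and miR-3102-3p, with 62.5% GC, at -4.48. Of non-member arms with a GC content of 55% or more, 30 of 64 (46.9%) were past the rule in the same direction, with a median log2 ratio of -0.84. It was 16.3% of those from 45% to under 55% (median -0.29) and 17.0% of those under 45% (median -0.33). The part of GC content in the members' ratios was not tested. Read numbers were low as well: apart from miR-320-3p no member arm had more than 193 reads in the library labelled siSrf1.

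**Figure D4:**
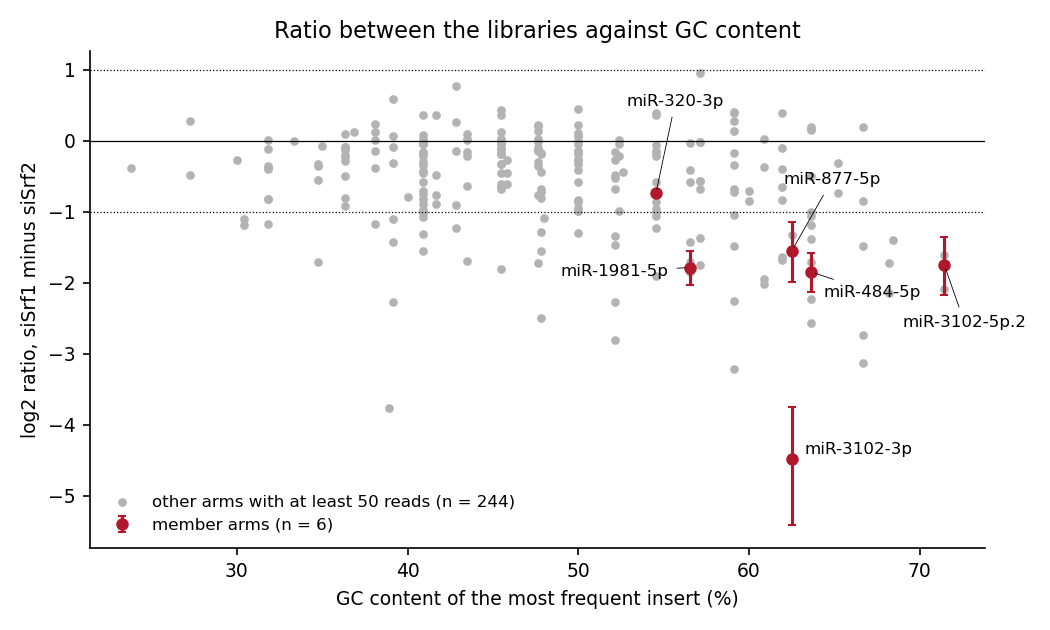
Log2 ratio of the 2 libraries against the GC content in percent of each arm's most frequent insert, for 244 other arms (grey) and 6 member arms (red, with exact binomial 95% intervals); dotted lines mark 2-fold. The member arms lie from -0.74 (miR-320-3p) to -4.48 (miR-3102-3p), the latter below every grey point and with 14 reads in the library labelled siSrf1.

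Hairpins of related or contrasting origin gave a range of values. Of other non-canonical hairpins the mirtrons Mir1224 and Mir1982 had 1 and 6 reads over both libraries. Mir1839, from a small nucleolar RNA, was read mainly as miR-1839-5p, with 3285 and 4623 reads, at -0.70 on the log2 scale (-0.77 to -0.64), near that of miR-320-3p. miR-451a-5p, cut by Ago2 in place of Dicer, lay at -0.11 (-0.56 to 0.35). Of these 4 hairpins 2 arms were measured and 0 were past the rule. The GC-rich canonical hairpins Mir423, Mir744, Mir345, Mir187 and Mir210 had 8 measured arms, 6 of them past the rule toward the library labelled siSrf2, from -3.22 (miR-345-5p) to 0.15 (miR-210-3p), with a median of -1.24. With TMM factors 3 of the 8 were past it and the median was -0.74. The non-member arms with at least 200 reads whose ratio lay nearest to the member median over these 2 libraries were miR-674-5p (61 and 178 reads), miR-328-3p (119 and 340) and miR-503-5p (1580 and 4479).

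Untemplated bases at the 3' end set several members apart from one another. In the mirtrons the 3' end of the 3p arm is the 3' splice site, so the next genomic base belongs to the exon. In each of these 4 introns that base is not T. The reads below were found in the files, shown with the untemplated base in capitals, to make plain that the same base follows the intron's last AG in 3 hairpins.
miR-3102-3p: gagcaccccattggctacccacagT
miR-3102-3p, shorter form: caccccattggctacccacagT
miR-1981-3p: atctaaccctggcctttgacagT
miR-702-3p: tgcccaccctttaccccgctccagT
The first was read 2 and 87 times, the next 1 and 11 times, that of Mir1981 0 and 5 times and that of Mir702 0 and 10 times. Of reads of Mir3102 that ended at the last intron base, 101 of 197 (51.3%, interval 44.1 to 58.4) carried an added T or TT in the library labelled siSrf2 and 4 of 10 in the library labelled siSrf1. In Mir1981 it was 6 of 6 such reads and in Mir702 10 of 13, all in the library labelled siSrf2, where Mir877 had 1 of 4. The Mir702 reads run past its annotated hairpin, so the counting rule leaves them out. Over the 4 hairpins 122 of 231 reads ending at the last intron base (52.8%) had an added T, and 20 had another addition. Of the 231 reads 220 were in the library labelled siSrf2, and 197 of those came from Mir3102, so the share is mainly that of 1 hairpin in 1 library. An added T was not particular to these ends. Over all reads of an arm, GC-rich canonical arms with at least 50 reads in each library ranged widely. T or TT was on 0.0621% and 0.0697% of miR-423-5p reads, and on 65.8% and 68.5% of miR-345-3p reads. For miR-3102-3p it was 33.0% in the library labelled siSrf2. The inner 3p arm of Mir3102, whose end lies inside the intron, carried an untemplated base in 5 of 5 and 18 of 21 reads. In 5 and 16 of these reads it was T or TT.

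Over all reads of an arm, whatever their templated end, miR-3102-3p was tailed in 2 of 14 and 136 of 279 reads, and the 5p arms and miR-320-3p differed in which base was added. miR-320-3p carried an added T or TT on 22.6% of reads (21.96 to 23.2) and 21.8% (21.3 to 22.3), rank 17 of 180 arms in each library, while the median was 4.25% and 3.93%. Its share of added A was 0.454% and 0.346%; the hairpin continues with A after the usual end, so an added A there reads as templated. miR-877-5p had an added T on 13.0% and 13.6% of reads, miR-1981-5p on 11.9% and 12.3% and miR-484-5p on 8.72% and 11.6%. The inner 5p arm of Mir3102 showed the reverse, with T on 2.90% and 2.99% of reads and A on 14.5% (7.17 to 25.04) and 18.4% (13.3 to 24.5), against a median for A of 6.93% and 7.09%. After its most frequent end the hairpin continues with A and then T. An A added at that end, or a T added after this A, therefore reads as templated. For each of these 5 arms the intervals of the T share in the 2 libraries overlapped. Since a base misread at the end of an insert also counts as untemplated, the shares include sequencing errors.

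**Figure D5:**
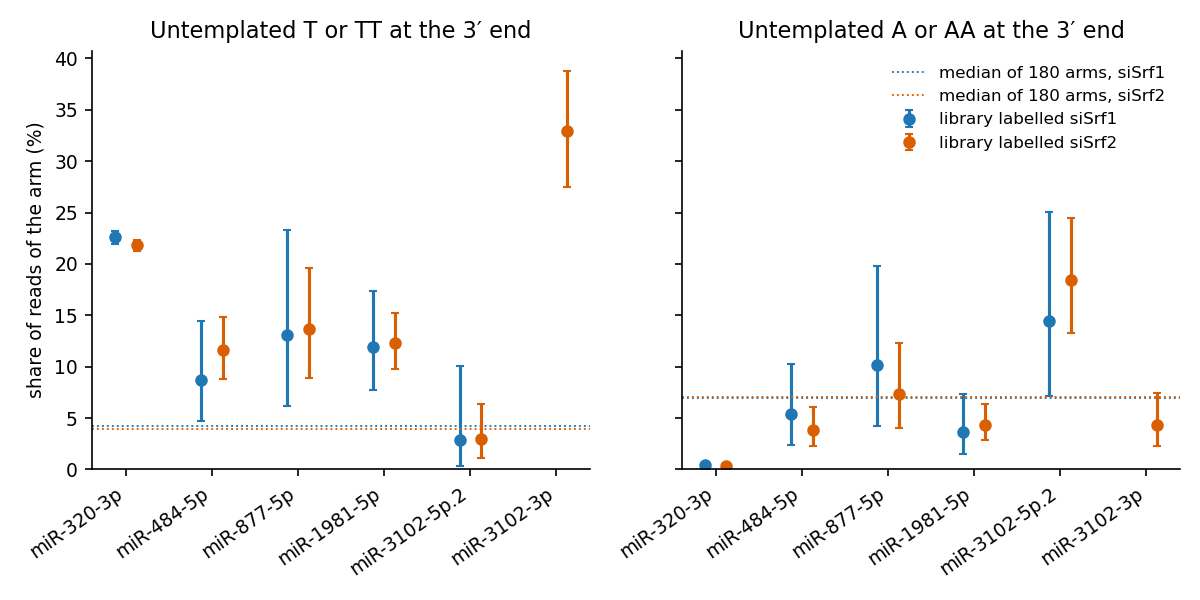
Share in percent of an arm's reads that end in untemplated T or TT (left) and A or AA (right), in the library labelled siSrf1 (blue) and the library labelled siSrf2 (orange), with exact Clopper-Pearson 95% intervals; dotted lines are the medians of 180 arms. miR-3102-3p is shown for the library labelled siSrf2 alone, at 33.0% for T, because it had 14 reads in the other library.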

How the data were processed

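The authors deposited, for each library, its distinct 36 nt sequences with the read count of each, not normalized and with the adapter still in place. Per the labels' protocols, small RNA was prepared with a kit of Illumina for sequencing by its Genome Analyzer. Aligner, build and read filter: not given in the sources used here. Inserts were cut at the first 8 nt of the adapter, which was read off the files, or at a match of 4 nt or more at the read end. They were matched to 675 hairpins: 550 named by GENCODE vM1 (NCBIM37), 110 by a RefSeq hairpin sequence, 14 by a mature sequence, and Mir1839 from RefSeq alone. An arm holds inserts starting within 2 nt and ending, before any untemplated base, within 3 nt of its most frequent insert. Inserts that fit several hairpins were shared equally; bases that match the genome beyond a hairpin were not taken as untemplated. In the genome every untailed member insert matched 1 place, apart from 3 reads of Mir877 and 2 and 3 of Mir3102, and at most 1 tailed read of a hairpin and library matched in full elsewhere.

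Ratios use a pseudocount of 0.5 reads and exact binomial 95% intervals given the sum of both counts; shares use Clopper-Pearson intervals, and a count of 0 is taken to allow 3. Since no molecular identifiers were used, reads are not independent molecules. Replicates being absent, no p-value was computed. Every member arm was named, with the lists of other non-canonical and GC-rich hairpins and the 3 arms nearest in ratio; mirtron read ends at the introns used GENCODE vM1 exons. Members and lists were chosen with earlier results of these data known. Alternatives were other scalings (edgeR 4.0.16 TMM, DESeq2 1.42.0 size factors, other totals), minimums, insert lengths, adapter lengths, tail rules, arm windows and pseudocounts. Steps were tested on simulated data. Tools were Python 3.11.15, numpy 2.4.6, pandas 2.3.3, scipy 1.17.1, numba 0.67.0, pysam 0.24.0 and R 4.3.3.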

Additional observations from a re-analysis of the deposited data

Results flagged for a closer look

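Reads of Mir702 that run past the annotated hairpin end stood outside the counts, because the rule counts matches within the hairpin. They numbered 14 in the library labelled siSrf2, above the 3 reads that a count of 0 allows, and 1 in the library labelled siSrf1. By position they are the 3p arm of Mir702: 13 and 1 of them have the last base of the Plod3 intron as their last templated base, 2 nt beyond the annotated hairpin, and 10 of the 13 carry an added T. By the counting rule Mir702 has 0 reads on its 3p side.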

How the results depend on the processing

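No paired analysis was possible because no title has a further library to pair. The number of member arms past the size rule was 5 and became 2 with a minimum of 500 reads, which leaves 3 member arms measured; under the other alternatives it lay from 5 to 7. The member median of -1.76 became -1.26 under TMM scaling and -1.33 under size factors by median of ratios, both of which rescale all arms alike. Each of the 6 measured arms kept its direction and its side of the size rule under the 15 or 16 alternatives run for it. Of the arms under 50 reads, miR-1981-3p (-2.71) and miR-702-5p (-1.64) are past the rule with no minimum, but with TMM factors they lay at -2.21 (-8.18 to 0.19) and -1.13 (-2.84 to 0.20), not past it. The log2 ratio of miR-877-5p came nearest to the 2-fold bound, at -1.05 with TMM factors, and that of miR-3102-3p ranged from -4.70 to -3.75. Inserts of 20 to 24 nt leave out the 25 nt form of miR-3102-3p with an added T: its untemplated share in the library labelled siSrf2 was then 14.9% against 48.7%, that of miR-877-5p 15.2% against 24.4%, and the 5p share of Mir3102 was 48.4% against 38.4%. Depth limits miR-1981-3p, miR-877-3p and miR-702-5p, which had 1 and 8, 0 and 4, and 6 and 17 reads.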
